A study of Homo sapiens with 18 samples.

Results

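Gene expression in ZR-75-1 cells given palbociclib for 5 days was compared with that in cells given the solvent DMSO, over all genes. ZR-75-1 is an established oestrogen receptor-positive, luminal breast cancer cell line. The comparison used 6 of the 18 libraries of the series, chosen by the cell line and treatment in their labels: 3 replicates with palbociclib at 500 nM and 3 with an equal volume of DMSO. The labels call the cells parental and wild-type in genotype, and all of them grew in the same serum-containing medium. The other libraries used below are 3 of ZR-75-1 with abemaciclib at 500 nM, and 3 each of CAMA-1, another oestrogen receptor-positive breast cancer line, with palbociclib at 500 nM or DMSO, all for 5 days. CAMA-1 with abemaciclib at 500 nM for 5 days, also 3 libraries, entered only the fit over all 18 libraries and no contrast. The methods describe the replicates as independent biological replicates of an experiment performed once, so a single line, dose and time stand behind each value.

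Palbociclib inhibits the cyclin D-dependent kinases CDK4 and CDK6. These kinases phosphorylate the retinoblastoma protein Rb, and when they are blocked Rb holds back the E2F transcription factors and cells stop in G1. In luminal breast cancer cells such an arrest can last for days while the cells stay alive, and during that time secretion, metabolism, protein quality control and stress responses may each settle at another level. The gene groups below are arranged along those roles.

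Of 11017 genes tested, 1594 were called higher with palbociclib, which is 14.5%, and 1474 were called lower, which is 13.4% (edgeR quasi-likelihood test, Benjamini-Hochberg adjusted p under 0.05). Together these are 27.8% of the genes tested. Each count of called list members against DMSO below is to be read beside 14.5% and 13.4%. Of the called genes, 358 were at least 2-fold higher and 359 at least 2-fold lower. The palbociclib and DMSO libraries did not overlap for 4300 genes, 39% of those tested. The median log2 fold change of all genes tested was -0.01. The TMM scaling of library sizes centres most genes near 0, so this value is not a result. Changes below are relative to that centre, and a shift shared by most genes would not be seen. The libraries held between 2998974 and 3737355 counts, and levels are given as CPM, counts relative to a library size that TMM had scaled. In a library 3 counts stood for 0.803 to 1.00 CPM before that scaling, which sets the lowest level at which a change could be seen. Mitochondrial genes took 20.2% ± 2.68 of the counts with DMSO and 18.98% ± 0.70 with palbociclib (SD, n = 3; exact two-sided permutation p = 0.6, where 3 against 3 cannot go below 0.1).

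**Figure D1:**
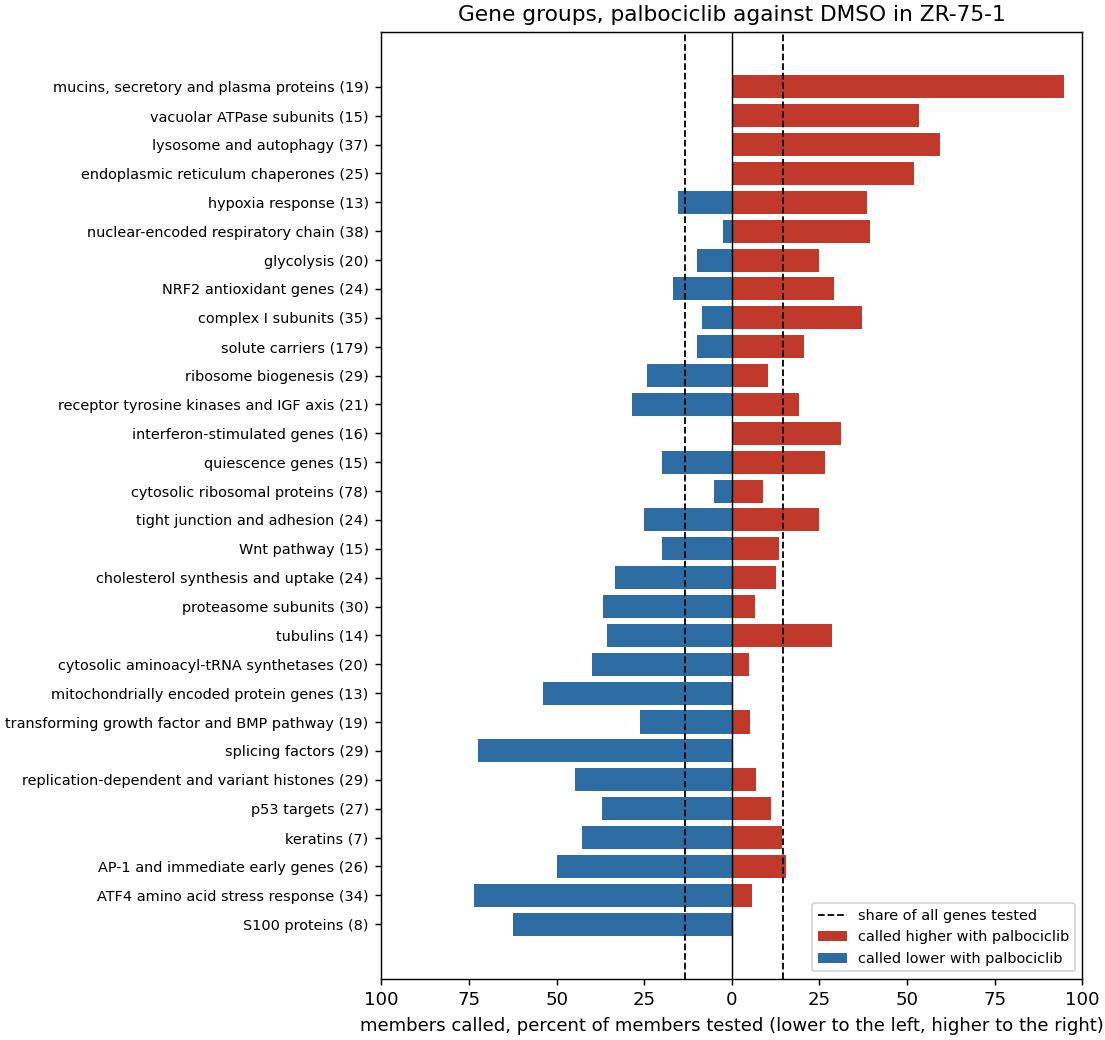
Share of the tested members of 30 gene groups called higher (red, to the right) or lower (blue, to the left) with palbociclib, in percent; the number tested is in parentheses, and dashed lines mark the shares of all genes tested, 14.5% and 13.4%. Secretory genes, vacuolar ATPase subunits, lysosomal genes and ER chaperones reach furthest to the right with no call to the left, and ATF4-linked genes, splicing factors and S100 genes reach furthest to the left.

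The drug targets themselves were measured first. CDK4 mRNA was at 239, 250.3 and 217 CPM with DMSO and 222, 227 and 204 CPM with palbociclib, and the groups overlapped (log2 fold change -0.11 ± 0.08 SE, adjusted p = 0.297). RB1, which encodes Rb, also overlapped between groups (log2 fold change -0.26 ± 0.14 SE, adjusted p = 0.162). CDK6 was near the floor in both groups, at 4.47, 5.99 and 2.36 CPM with DMSO and 2.18, 1.32 and 2.59 CPM with palbociclib (log2 fold change -1.06 ± 0.56 SE, adjusted p = 0.158). Cyclin D1, the activating partner of both kinases, was higher in every palbociclib library: CCND1 stood at 835, 826 and 807 CPM with DMSO and 1487, 1421 and 1442 CPM with palbociclib (log2 fold change 0.82 ± 0.06 SE, adjusted p = 7.25e-16). The treatment acts on kinase activity, so these mRNA levels do not check it. MKI67, a marker of proliferating cells, fell in all palbociclib libraries, from 477, 498 and 481 CPM to 179, 203 and 187 CPM (log2 fold change -1.36 ± 0.08 SE, adjusted p = 3.64e-20).

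The labelled cell type was checked against its markers. All 16 luminal epithelial markers passed the count filter, with 4 called higher and 5 lower. Their summed level was 10600.0 to 11107 CPM with DMSO and 10974 to 11119 CPM with palbociclib. ESR1, the gene of oestrogen receptor alpha, was higher with palbociclib (log2 fold change 0.77 ± 0.08 SE, adjusted p = 1.80e-11), as was PGR, the progesterone receptor gene (log2 fold change 0.67 ± 0.07 SE, adjusted p = 1.16e-10). Among the 5 luminal markers called lower were the keratin genes KRT18 and KRT8, whose values are given with the keratins below. Of 9 basal epithelial markers only 2 passed the filter and neither was called. Of 11 fibroblast markers 1 passed, of 10 leukocyte markers 1 passed, and of 8 endothelial markers none passed. The endothelial markers summed to at most 1.01 CPM with DMSO and 1.64 CPM with palbociclib. The leukocyte marker that passed, the lysozyme gene LYZ, was at 0.958, 4.49 and 2.36 CPM with DMSO and 5.46, 6.91 and 10.9 CPM with palbociclib (log2 fold change 1.54 ± 0.46 SE, adjusted p = 0.00757); it was not called without DMSO replicate 1 (adjusted p = 0.084) or without palbociclib replicate 3 (adjusted p = 0.0952).

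Secretory genes rose together. The list of mucins, secretory and plasma proteins covers small proteins that luminal and glandular cells release, such as trefoil factors, secretoglobins and protease inhibitors. Of its 35 members 19 were tested, 18 were called higher and 0 lower, and the median log2 fold change was 2.32. The untested 16 had too few counts. Because a gene silent under DMSO can pass the filter only through the group where it is high, the share among those tested does not describe all 35. The summed level of the list was 5239 to 5418 CPM with DMSO and 23462 to 24532 CPM with palbociclib.

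MGP, a secreted inhibitor of calcification (chr12:14880864-14885857, minus strand on GRCh38), stood at 769, 769 and 764 CPM with DMSO and 8197, 8023 and 9141 CPM with palbociclib, a rise of 11.0-fold (log2 fold change 3.46 ± 0.07 SE, adjusted p = 5.50e-42). SCGB2A2, which encodes mammaglobin A, a secretoglobin of breast epithelium, stood at 355, 357 and 417 CPM with DMSO and 3486, 3175 and 3318 CPM with palbociclib (log2 fold change 3.14 ± 0.07 SE, adjusted p = 2.15e-39). Replicates lay close together in both groups, far from the other group. TFF1, a trefoil factor and a classical oestrogen-induced gene, went from 1723, 1611 and 1704 CPM to 7206, 7181 and 7057 CPM (log2 fold change 2.09 ± 0.07 SE, adjusted p = 7.77e-33). The extracellular chaperone gene CLU went from 94.2, 105 and 98.7 CPM to 549, 464 and 478 CPM (log2 fold change 2.32 ± 0.08 SE, adjusted p = 1.28e-30).

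Of 15 plasma protein genes 5 were tested and called higher, with a median log2 fold change of 3.96. Genes this low with DMSO could pass the count filter through the palbociclib libraries, and the other 10 were not tested, so the count and the median are a description of these 5 alone. APOD, the apolipoprotein D gene, was at 2.87, 1.20 and 3.37 CPM with DMSO and 40.4, 43.4 and 37.6 CPM with palbociclib (log2 fold change 4.03 ± 0.27 SE, adjusted p = 5.74e-18). A2M, the gene of the protease inhibitor alpha-2-macroglobulin, had at most 3 counts in each DMSO library and 6.00, 7.24 and 9.77 CPM with palbociclib. Set against the 3-count floor its mean was at least 8.03-fold higher. With A2M at that bound the median of the 5 became that of SERPINA5, 3.51. Among members picked out after their values were seen, SCGB1D2 had a log2 fold change of 2.47 (adjusted p = 3.27e-26) and PIP, the prolactin-induced protein gene, one of 2.82 (adjusted p = 3.29e-18).

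**Figure D2:**
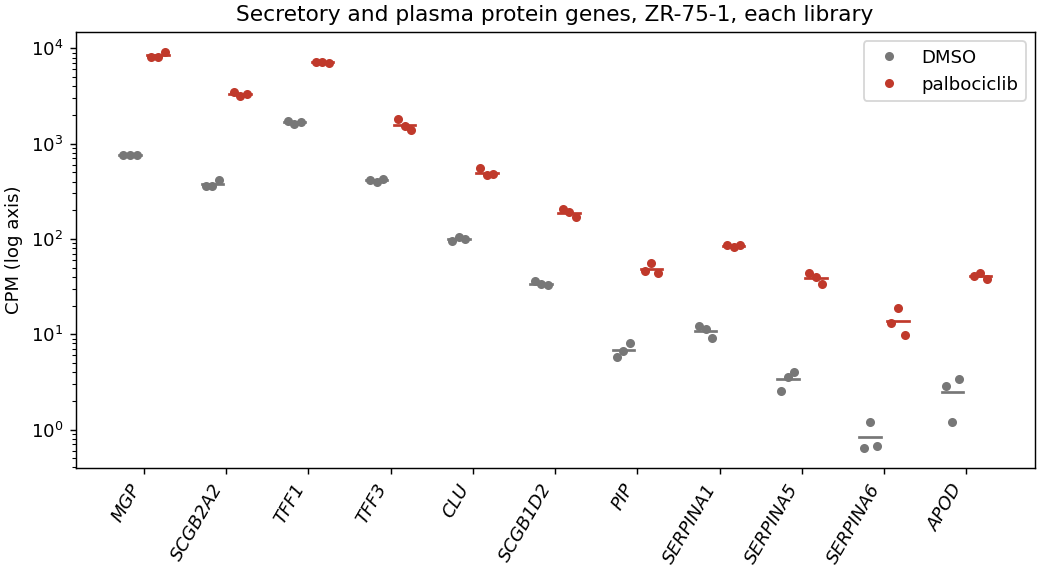
CPM on a log axis of 11 secretory and plasma protein genes in each of the 3 DMSO (grey) and 3 palbociclib (red) libraries of ZR-75-1; bars are group means. In each of the 11 genes every palbociclib point lies above every DMSO point, with wide gaps at MGP and APOD.

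Beside this list, the largest rises named by the rule were those of genes for membrane, oxidation and antimicrobial proteins. CLDN2, which encodes a pore-forming claudin of tight junctions, was at 3.51, 2.10 and 2.36 CPM with DMSO and 67.1, 66.8 and 75.8 CPM with palbociclib (log2 fold change 4.70 ± 0.21 SE, adjusted p = 2.37e-26). CYP4B1, a cytochrome P450 gene, was at 4.15, 4.79 and 4.38 CPM with DMSO and 103, 114 and 94.5 CPM with palbociclib (log2 fold change 4.53 ± 0.18 SE, adjusted p = 8.24e-29). BPIFB1, whose product is secreted by airway and glandular epithelium, was at 5.11, 2.10 and 8.09 CPM with DMSO and 110.3, 90.5 and 90.8 CPM with palbociclib (log2 fold change 4.27 ± 0.19 SE, adjusted p = 1.36e-25). All of these were low but detected with DMSO, and no palbociclib library came near a DMSO library.

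NCMAP, which encodes a membrane protein known from myelin, PGLYRP2, a peptidoglycan-recognition protein gene, and CAMP, the cathelicidin gene, each had at most 3 counts in every DMSO library. Against the 3-count floor their means were at least 8.47-fold, 13.4-fold and 7.81-fold higher with palbociclib.

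Among the largest falls, 3 belonged to the amino acid stress response described next: CHAC1, SLC7A11 and NUPR1. PIM1, a serine/threonine kinase gene, was at 5.11, 8.38 and 6.07 CPM with DMSO and had at most 3 counts in each palbociclib library. By the group mean this makes it at least 7.33-fold lower. E2F8, an atypical E2F family repressor, was at 6.71, 4.79 and 7.75 CPM with DMSO and 1.36, 0.329 and 0.575 CPM with palbociclib (log2 fold change -2.97 ± 0.58 SE, adjusted p = 5.70e-05). The synaptic organiser gene CBLN2 was at 44.4, 53.6 and 48.2 CPM with DMSO and 9.01, 4.60 and 6.89 CPM with palbociclib (log2 fold change -2.81 ± 0.22 SE, adjusted p = 6.72e-16), and PRIMA1, the membrane anchor of acetylcholinesterase, at 5.43, 6.29 and 5.05 CPM with DMSO and 0.273, 1.64 and 0.862 CPM with palbociclib (log2 fold change -2.60 ± 0.58 SE, adjusted p = 4.47e-04). H2AC14, a replication-dependent histone H2A gene, was at 11.8, 14.1 and 12.8 CPM with DMSO and 2.46, 1.32 and 1.72 CPM with palbociclib (log2 fold change -2.77 ± 0.41 SE, adjusted p = 3.39e-07). In each of these genes all palbociclib libraries lay below all DMSO libraries.

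The amino acid stress response fell. When amino acids run short or unfolded protein builds up, kinases phosphorylate the initiation factor eIF2 alpha, which favours translation of the transcription factor ATF4. ATF4, with C/EBP partners, then switches on amino acid transporters, amino acid synthesis and tRNA charging, and also stress effectors such as CHAC1. ATF4-regulated genes carry C/EBP-ATF elements, often written TGATGCAA. Promoter windows from RefSeq on GRCh38.p14, which run from 250 bases before to 50 bases after an annotated start, were searched for these letters on both strands. Of 35116 windows, 0.866% held them. Among the tested ATF4-linked genes, 28 of 34 had a window and 5 of the 28 held a match, and among tRNA synthetase genes 16 of 20 had a window and 6 held a match. A gene can have several windows. Counted by window, 11.9% of those of the ATF4-linked genes and 28.6% of those of the synthetases held a match. Enrichment was not tested. The following stretches show the match in capitals, with TTGCATCA being the same letters on the other strand. Shown are the members with a match that were called lower, ordered by adjusted p within each list. The other ATF4-linked genes called lower held no match in a window or had no window.
CHAC1: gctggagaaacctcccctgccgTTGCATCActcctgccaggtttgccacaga
JDP2: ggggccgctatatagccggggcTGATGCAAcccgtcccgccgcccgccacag
CEBPG: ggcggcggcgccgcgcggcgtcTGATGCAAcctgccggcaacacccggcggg
AARS1: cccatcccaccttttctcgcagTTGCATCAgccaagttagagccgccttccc
MARS1: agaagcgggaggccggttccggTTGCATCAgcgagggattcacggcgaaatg
TARS1: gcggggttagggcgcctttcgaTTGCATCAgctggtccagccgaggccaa
CARS1: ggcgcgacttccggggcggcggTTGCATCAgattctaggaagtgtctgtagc
All are printed 5′ to 3′ on the strand of the gene. CHAC1 is at chr15:40953240-40953291 (plus strand), JDP2 at chr14:75427984-75428035 (plus strand), CEBPG at chr19:33374049-33374100 (plus strand), AARS1 at chr16:70289664-70289715 (minus strand), MARS1 at chr12:57488042-57488093 (plus strand), TARS1 at chr5:33440945-33440994 (plus strand) and CARS1 at chr11:3057396-3057447 (minus strand). A match is a string of letters and not a measured binding site. SLC1A5 and SLC1A4 and, of the synthetases, IARS1 and NARS1 also held a match, and none of these was called changed.

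Of 40 ATF4-linked genes 34 were tested, 2 were called higher and 25 lower, with a median log2 fold change of -0.85. All 7 transcription factors of the list fell, with a median of -1.53. ATF4 itself went from 385, 293 and 307 CPM to 112, 129.9 and 114 CPM (log2 fold change -1.47 ± 0.09 SE, adjusted p = 5.92e-20). NUPR1, a small stress-induced chromatin protein gene, went from 53.3, 37.1 and 36.7 CPM to 4.64, 7.24 and 7.47 CPM (log2 fold change -2.72 ± 0.23 SE, adjusted p = 1.47e-14). JDP2 (log2 fold change -2.47), DDIT3, which encodes CHOP (-2.08), ATF3 (-1.53), CEBPG (-1.24) and CEBPB (-0.80) completed the factors, with adjusted p from 5.79e-08 for JDP2 to 2.89e-04 for CEBPB.

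Amino acid transporters were lower in 5 of 8 tested. SLC7A11, the cystine/glutamate exchanger, stood at 46.9, 35.6 and 29.99 CPM with DMSO and 4.37, 3.29 and 4.02 CPM with palbociclib (log2 fold change -3.25 ± 0.27 SE, adjusted p = 6.46e-15). SLC7A5, the leucine transporter LAT1, stood at 58.8, 39.2 and 45.8 CPM with DMSO and 10.1, 8.22 and 11.5 CPM with palbociclib (log2 fold change -2.26 ± 0.20 SE, adjusted p = 6.75e-14). SLC3A2, the heavy chain that pairs with both, fell less (log2 fold change -1.16 ± 0.12 SE, adjusted p = 1.24e-11). SLC7A1 (-0.98) and SLC38A2 (-0.84) fell too. The glycine transporter gene SLC6A9 rose, from 20.1, 13.5 and 14.2 CPM to 39.0, 24.7 and 33.6 CPM (log2 fold change 1.04 ± 0.19 SE, adjusted p = 2.42e-05). SLC1A5 and SLC1A4 were not called (adjusted p = 0.266 and 0.839).

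Enzymes of amino acid synthesis were lower in 7 of 10 tested. The serine pathway genes fell at PHGDH (log2 fold change -0.87, adjusted p = 4.60e-07), PSAT1 (-1.53, 8.09e-06), SHMT2 (-0.57, 3.38e-05) and MTHFD2 (-0.55, 3.06e-06). PCK2 (-0.96), GPT2 (-1.04) and PYCR1 (-0.20) were lower as well. PYCR1 was not called without DMSO replicate 1 or 2 or palbociclib replicate 2, nor with no filter on low counts. PSPH and CTH were not called, and ALDH18A1, which starts proline synthesis, was higher (log2 fold change 0.76 ± 0.12 SE, adjusted p = 9.54e-07).

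The stress effectors were lower in 6 of 9 tested. CHAC1, which degrades glutathione, stood at 17.6, 11.1 and 20.2 CPM with DMSO and 2.46, 1.64 and 0.862 CPM with palbociclib (log2 fold change -3.25 ± 0.44 SE, adjusted p = 3.28e-08). TRIB3, a pseudokinase that restrains ATF4, stood at 82.7, 69.2 and 82.2 CPM with DMSO and 16.9, 23.7 and 20.1 CPM with palbociclib (log2 fold change -1.95 ± 0.15 SE, adjusted p = 2.78e-16). GDF15, a stress cytokine, stood at 131, 124 and 102 CPM with DMSO and 37.9, 35.2 and 43.1 CPM with palbociclib (log2 fold change -1.61 ± 0.12 SE, adjusted p = 3.87e-16). In each of these every palbociclib library was below every DMSO library. SESN2 (-0.63), STC2 (-0.64) and the tRNA exporter XPOT (-0.37) were lower by less. STC2 was not called without DMSO replicate 3, and XPOT lost its call in 3 of the 6 fits with a library left out, with no filter on low counts, with DESeq2 and with the 6 libraries alone (highest adjusted p = 0.18). PPP1R15A, DDIT4 and CHORDC1 were not called.

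Of the 20 cytosolic aminoacyl-tRNA synthetase genes, which charge tRNAs with amino acids, 8 were called lower and 1 higher, with a median of -0.19. MARS1, for methionine, stood at 146, 120.4 and 116 CPM with DMSO and 55.7, 60.2 and 63.8 CPM with palbociclib (log2 fold change -1.09 ± 0.11 SE, adjusted p = 4.11e-12). AARS1, for alanine, stood at 319.6, 286 and 321 CPM with DMSO and 185, 183 and 171 CPM with palbociclib (log2 fold change -0.78 ± 0.08 SE, adjusted p = 3.54e-12), and TARS1, for threonine, at 235, 199 and 238 CPM with DMSO and 124, 139.8 and 128 CPM with palbociclib (log2 fold change -0.78 ± 0.09 SE, adjusted p = 1.70e-10). The palbociclib and DMSO libraries did not overlap for any of these. CARS1, picked for its promoter match, was lower as well (log2 fold change -0.68 ± 0.11 SE, adjusted p = 2.51e-06). QARS1, for glutamine, was the member called higher (log2 fold change 0.37 ± 0.10 SE, adjusted p = 0.00498), and was not called without palbociclib replicate 1.

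**Figure D3:**
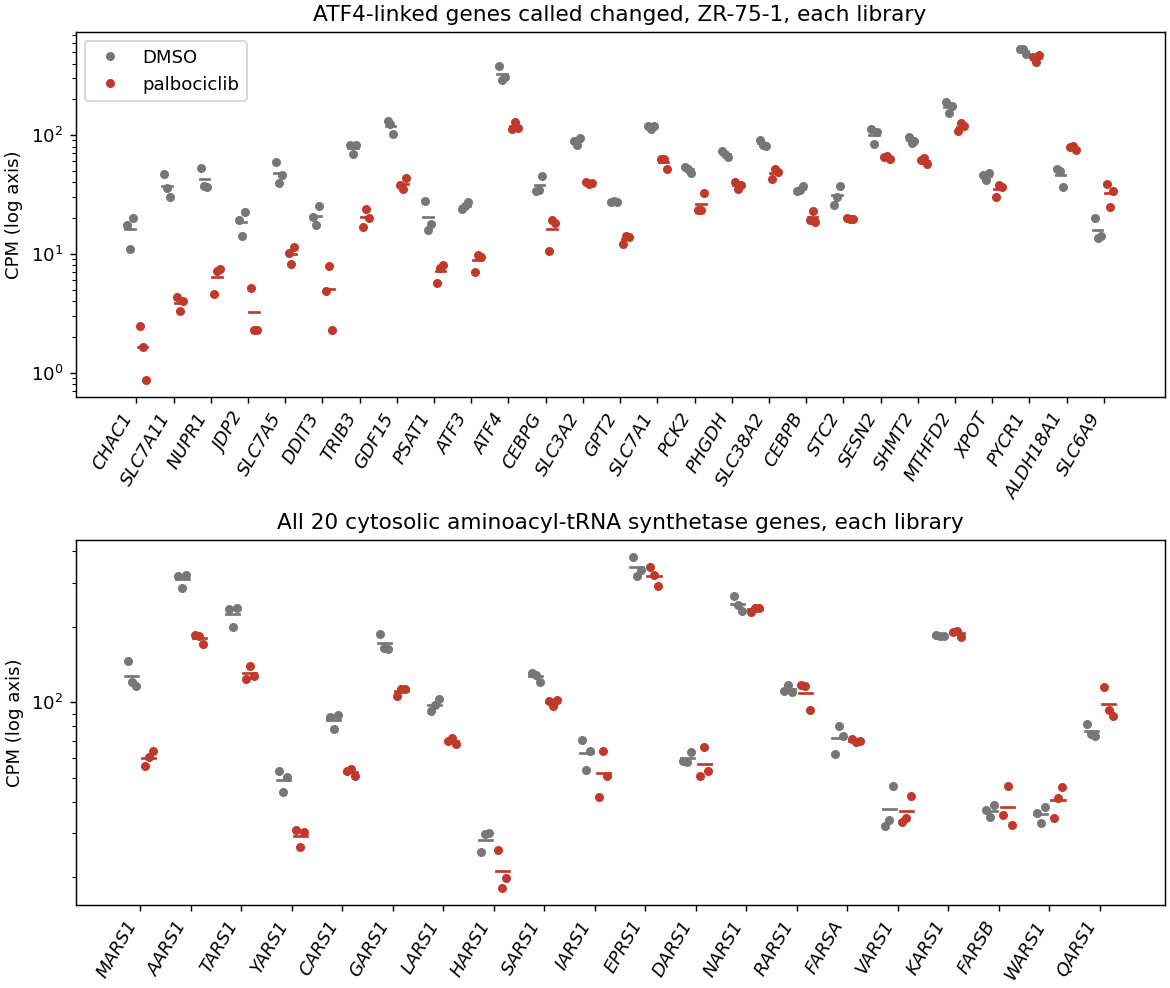
CPM on a log axis of the 27 ATF4-linked genes called changed (top) and of all 20 cytosolic aminoacyl-tRNA synthetase genes (bottom) in each DMSO (grey) and palbociclib (red) library of ZR-75-1, ordered by log2 fold change; bars are group means. CHAC1 and SLC7A11 at the left of the top panel lie about an order of magnitude apart between groups, and among the synthetases the groups are separate from MARS1 to LARS1 on the left and at QARS1 on the right.

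Chaperones of the endoplasmic reticulum (ER) moved the opposite way. They fold secreted and membrane proteins, and the ER stress element of their promoters is the string CCAAT followed, after 9 bases, by CCACG. It stood in 0.0769% of the 35116 promoter windows, searched on both strands. Of 25 tested members 23 had a window, and 7 held a match: CALR, CANX, CRELD2, HSP90B1, HSPA5, PDIA6 and XBP1. Counted by window, the share of these members was 31.0%. The stretches of the 4 with the smallest p in the comparison with DMSO are shown, with the letters of the element in capitals. CGTGG and ATTGG are the reverse complements of CCACG and CCAAT.
HSPA5: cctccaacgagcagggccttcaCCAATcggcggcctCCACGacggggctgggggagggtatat
CALR: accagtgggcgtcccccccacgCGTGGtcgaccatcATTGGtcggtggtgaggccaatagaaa
CRELD2: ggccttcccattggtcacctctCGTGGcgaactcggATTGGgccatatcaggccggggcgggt
HSP90B1: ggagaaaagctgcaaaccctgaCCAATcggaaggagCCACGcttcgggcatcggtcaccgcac
On GRCh38.p14, HSPA5 is at chr9:125241369-125241431 (minus strand), CALR at chr19:12938362-12938424 (plus strand), CRELD2 at chr22:49918532-49918594 (plus strand) and HSP90B1 at chr12:103930194-103930256 (plus strand), each printed on the strand of the gene.

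Of 26 ER chaperone and quality-control genes 25 were tested, 13 were called higher and 0 lower, with a median of 0.41. Under RLE scaling, upper-quartile scaling or a stricter count filter, and without DMSO replicate 3 or palbociclib replicate 3, 1 member was called lower: HERPUD1, an ER-associated degradation gene (log2 fold change -0.40 ± 0.16 SE, adjusted p = 0.0533). HSPA5, which encodes the central ER chaperone BiP, stood at 322, 366 and 326 CPM with DMSO and 514, 552 and 646 CPM with palbociclib (log2 fold change 0.75 ± 0.08 SE, adjusted p = 8.90e-12). CALR, the lectin chaperone calreticulin, stood at 294, 328 and 282 CPM with DMSO and 467, 469 and 496 CPM with palbociclib (log2 fold change 0.66 ± 0.07 SE, adjusted p = 4.49e-11), and CRELD2, a disulphide isomerase-like protein gene, at 61.3, 59.3 and 48.2 CPM with DMSO and 112, 108 and 116 CPM with palbociclib (log2 fold change 0.99 ± 0.11 SE, adjusted p = 1.09e-10). Among these every palbociclib library was above every DMSO library. P4HB, which encodes protein disulphide isomerase, rose as well (log2 fold change 0.57 ± 0.07 SE, adjusted p = 1.45e-09). HSP90B1 (0.43, adjusted p = 8.41e-07) and PDIA6 (0.41, adjusted p = 2.03e-04), named for their promoter match, were called higher, while XBP1 (adjusted p = 0.128) and CANX (adjusted p = 0.223), which also hold one, were not. Chaperones made up 11 of the called genes, ER-associated degradation genes 2, and none of the 4 stress sensors of the list was called.

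Lysosomal and autophagy genes rose. Lysosomes break down proteins, lipids and sugars at acid pH, which the vacuolar ATPase pumps, and autophagy brings cell material to them. Of 44 members 37 were tested, 22 were called higher and 0 lower, with a median of 0.44. CTSD, the protease cathepsin D and a known oestrogen-induced gene, stood at 506, 478 and 516 CPM with DMSO and 1628, 1569 and 1584 CPM with palbociclib (log2 fold change 1.67 ± 0.07 SE, adjusted p = 2.85e-28). GLA, alpha-galactosidase, stood at 11.8, 19.2 and 14.8 CPM with DMSO and 47.8, 42.4 and 37.3 CPM with palbociclib (log2 fold change 1.47 ± 0.17 SE, adjusted p = 6.91e-10). NEU1, the lysosomal sialidase, stood at 23.3, 24.9 and 24.3 CPM with DMSO and 48.9, 48.4 and 58.3 CPM with palbociclib (log2 fold change 1.10 ± 0.14 SE, adjusted p = 4.94e-09). Replicates of the 2 groups were well apart in each. WIPI1, which acts in autophagosome formation, was at 20.4, 18.0 and 21.9 CPM with DMSO and 46.1, 47.7 and 46.2 CPM with palbociclib (log2 fold change 1.22 ± 0.15 SE, adjusted p = 4.79e-09). The lysosomal enzyme and membrane genes gave 14 of the calls, of 21 tested, and autophagy genes 8 of 14. Neither of the 2 regulators tested, TFE3 and MITF, was called.

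Of 15 tested vacuolar ATPase subunit genes 8 were called higher and 0 lower, with a median of 0.46. ATP6V1A, the catalytic subunit, stood at 102, 121 and 108 CPM with DMSO and 197, 168 and 163 CPM with palbociclib (log2 fold change 0.67 ± 0.09 SE, adjusted p = 3.99e-08). ATP6V0A1, a membrane-sector subunit, stood at 49.2, 45.8 and 34.0 CPM with DMSO and 87.9, 72.0 and 79.3 CPM with palbociclib (log2 fold change 0.89 ± 0.12 SE, adjusted p = 7.86e-08). ATP6V0E1 (0.49) and ATP6V0E2 (0.58) rose by less. TFE3, MITF and related factors bind an E-box of the form TCACGTGA in lysosomal promoters, a palindrome that reads alike on both strands. It was held by 0.98% of all windows, by 3 of the 29 lysosome and autophagy genes with a window (GAA, CTSA and LAMP1) and by 2 of 9 vacuolar ATPase genes (ATP6V0D1 and ATP6V1G1). Counted by window, these shares were 7.69% and 16.7%. GAA, acid alpha-glucosidase, has 2 matches in its window. The stretch around the first, at chr17:80101482-80101533 (plus strand), is shown because GAA was the member with a match that rose most, with the letters in capitals.
GAA: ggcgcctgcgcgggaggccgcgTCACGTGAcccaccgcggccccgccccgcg
GAA rose (log2 fold change 0.86 ± 0.12 SE, adjusted p = 5.29e-08). CTSA (0.32) and LAMP1 (0.20) were also called higher, each losing its call without palbociclib replicate 3 and without 1 or more DMSO replicates. ATP6V0D1 was called higher (0.50) and ATP6V1G1 was not (adjusted p = 0.103).

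**Figure D4:**
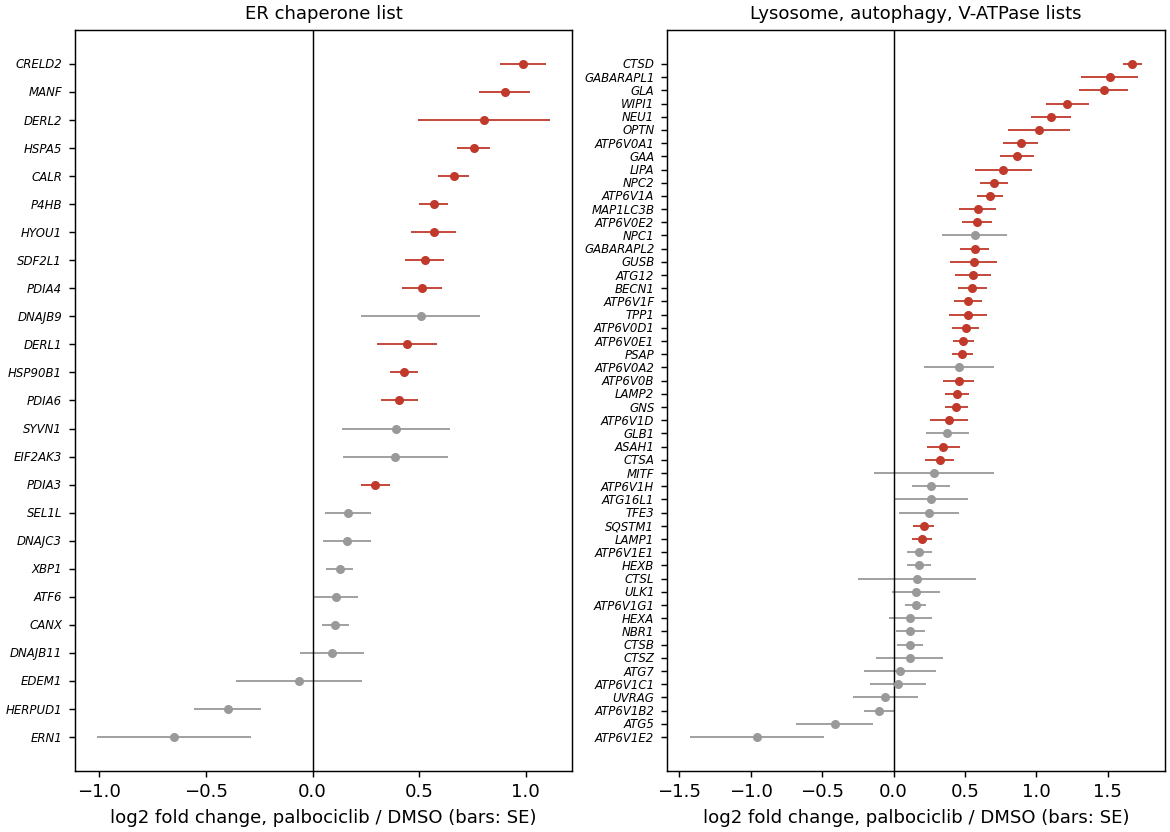
Log2 fold change of palbociclib over DMSO in ZR-75-1 for every tested member of the ER chaperone list (left, 25 genes) and of the lysosome, autophagy and vacuolar ATPase lists (right, 52 genes); bars are SE, red marks genes called changed and grey those not called. All called members lie to the right of 0.

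Immediate early genes were called lower more often than higher. They encode transcription factors such as the AP-1 subunits FOS and JUN, which growth factor signalling switches on within minutes. Of 34 members 26 were tested, 4 were called higher and 13 lower, with a median of -0.56. The groups did not overlap in 12 of the 26, against 39% of all genes tested. The summed level of the list overlapped, at 1092 to 1649 CPM with DMSO and 1096 to 1175 CPM with palbociclib. JUN stood at 95.5, 139.5 and 74.5 CPM with DMSO and 44.8, 51.3 and 54.3 CPM with palbociclib (log2 fold change -1.05 ± 0.14 SE, adjusted p = 5.43e-08). IER2 stood at 88.8, 164 and 66.7 CPM with DMSO and 40.1, 47.4 and 50.6 CPM with palbociclib (log2 fold change -1.22 ± 0.16 SE, adjusted p = 2.77e-08). In both, DMSO replicate 2 was the highest library and all palbociclib libraries lay below all DMSO libraries. IER5 (log2 fold change -1.44 ± 0.17 SE, adjusted p = 1.28e-09) and KLF6 (log2 fold change -0.79 ± 0.10 SE, adjusted p = 1.81e-08) fell as well. Without DMSO replicate 2, the count of members called lower was 10 and the median -0.45, and without DMSO replicate 1 those called higher numbered 2. DUSP4, a phosphatase gene that ERK signalling induces, rose instead, from 158, 148 and 170.5 CPM to 246, 241 and 248 CPM (log2 fold change 0.63 ± 0.08 SE, adjusted p = 6.86e-09). DUSP1, of the same family, overlapped between groups at 11.8, 20.7 and 4.72 CPM with DMSO and 3.55, 3.29 and 9.48 CPM with palbociclib (log2 fold change -1.19 ± 0.36 SE, adjusted p = 0.00922). It was not called without DMSO replicate 2 (adjusted p = 0.287) or without palbociclib replicate 1 or 2.

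Of 21 tested receptor tyrosine kinase and insulin-like growth factor (IGF) genes 4 were called higher and 6 lower, beside 14.5% and 13.4% of all genes. The median was -0.0049. Among the receptors, RET, a receptor for glial-derived ligands, rose from 7.02, 7.78 and 7.41 CPM to 33.8, 28.9 and 25.6 CPM (log2 fold change 1.99 ± 0.21 SE, adjusted p = 2.65e-11). The ligand gene AREG, which encodes the EGF receptor ligand amphiregulin, fell from 79.2, 71.9 and 66.4 CPM to 41.8, 34.2 and 37.3 CPM (log2 fold change -0.94 ± 0.13 SE, adjusted p = 4.83e-08). The IGF-binding protein genes IGFBP5 (log2 fold change 1.31 ± 0.06 SE, adjusted p = 7.48e-24) and IGFBP4 (log2 fold change 0.58 ± 0.07 SE, adjusted p = 2.35e-09) rose.

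In the transforming growth factor beta (TGF beta) and BMP pathway, 1 of 19 tested genes was called higher and 5 lower, beside 14.5% and 13.4% of all genes. The median was -0.31. Without DMSO replicate 2 or palbociclib replicate 2, 2 were called higher. The gene that rose with all libraries, TGFBR3, encodes a co-receptor and went from 1.60, 2.10 and 5.05 CPM to 23.2, 21.4 and 18.4 CPM (log2 fold change 2.85 ± 0.30 SE, adjusted p = 3.86e-11). ID2, an inhibitor of differentiation that BMP signalling induces (log2 fold change -1.70 ± 0.18 SE, adjusted p = 2.16e-11), and INHBB, an activin subunit gene (log2 fold change -0.84 ± 0.15 SE, adjusted p = 1.11e-05), fell. In the Wnt pathway 2 of 15 were higher and 3 lower, near the 14.5% and 13.4% of all genes, with a median of -0.07. The ligand gene WNT4, a known hormone-responsive mammary gene, had no count with DMSO and 2.73, 7.57 and 5.17 CPM with palbociclib. Its mean was at least 5.39-fold higher against the 3-count floor. Silent with DMSO, WNT4 could pass the filter only through a group where it was high, and so could only be called higher. LEF1, a Wnt transcription factor gene, rose (log2 fold change 0.98 ± 0.14 SE, adjusted p = 4.99e-08), and FZD6, a receptor gene, fell (log2 fold change -0.87 ± 0.20 SE, adjusted p = 6.88e-04). Without palbociclib replicate 2 only 1 Wnt gene was called lower.

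Targets of p53 were lower more often than higher. Of 27 tested, 3 were called higher and 10 lower, beside 14.5% and 13.4% of all genes, with a median of -0.42. Without DMSO replicate 1 the number lower was 6. CDKN1A, the CDK inhibitor p21, stood at 143, 152 and 129 CPM with DMSO and 75.9, 63.5 and 67.2 CPM with palbociclib (log2 fold change -1.04 ± 0.10 SE, adjusted p = 5.01e-12). RPS27L stood at 321, 364 and 309 CPM with DMSO and 229, 186 and 194 CPM with palbociclib (log2 fold change -0.71 ± 0.08 SE, adjusted p = 4.48e-10). Already described, GDF15 belongs to this list too. Every palbociclib library was below every DMSO library in these. RRM2B, a ribonucleotide reductase subunit gene (log2 fold change 1.16 ± 0.25 SE, adjusted p = 2.75e-04), and the antiproliferative gene BTG2 (log2 fold change 0.65 ± 0.17 SE, adjusted p = 0.00211) were higher. Of 15 tested genes linked to quiescence 4 were higher and 3 lower, beside 14.5% and 13.4% of all genes, with a median of -0.01. Among these KLF2 (log2 fold change -1.01 ± 0.11 SE, adjusted p = 3.32e-11) and CDKN1B, the CDK inhibitor p27 (log2 fold change -0.64 ± 0.13 SE, adjusted p = 6.17e-05), were lower and YPEL5 was higher (log2 fold change 1.05 ± 0.25 SE, adjusted p = 9.72e-04). Without palbociclib replicate 2, 2 quiescence genes were called higher.

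Genes for RNA processing fell. Splicing factors join exons and package new transcripts: of 29 tested, 21 were called lower and 0 higher, with a median of -0.34. SNRPD1, a core snRNP protein gene, stood at 519, 495 and 477 CPM with DMSO and 261, 263 and 284 CPM with palbociclib (log2 fold change -0.88 ± 0.07 SE, adjusted p = 4.08e-15). HNRNPA2B1 stood at 968, 955 and 924 CPM with DMSO and 564, 554 and 541 CPM with palbociclib (log2 fold change -0.78 ± 0.06 SE, adjusted p = 1.09e-14). HNRNPD (log2 fold change -0.88 ± 0.08 SE, adjusted p = 2.88e-13) and HNRNPM (log2 fold change -0.72 ± 0.07 SE, adjusted p = 1.69e-11) followed, and the groups did not overlap in any of these. Splicing factors gave a share of calls well beyond the 13.4% of all genes, though each fall was under 2-fold.

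Histone genes supply chromatin to replicating DNA, and of 29 tested 13 were called lower and 2 higher (1 higher without DMSO replicate 1), with a median of -0.38. H4C3 stood at 1061, 839.5 and 1161 CPM with DMSO and 308, 244 and 225 CPM with palbociclib (log2 fold change -1.97 ± 0.09 SE, adjusted p = 8.04e-26). The linker histone gene H1-2 fell (log2 fold change -1.28 ± 0.09 SE, adjusted p = 2.04e-17), and H2AJ, a variant that is made outside S phase, rose (log2 fold change 0.45 ± 0.08 SE, adjusted p = 2.62e-05). Replication-dependent histone mRNAs lack a poly(A) tail, and the kit primes on poly(A), so their values count only transcripts that carried one. Several histone genes are near-identical copies, so reads may be split among them.

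Among genes of protein synthesis and turnover, of 78 tested cytosolic ribosomal protein genes 7 were called higher and 4 lower, shares below those of all genes, and the median was -0.02. RPS18 (0.29), RPL10A (0.25) and RPLP1 (0.25) were among those higher. The number lower ran from 1 without DMSO replicate 1 to 10 without DMSO replicate 2, and was 7, 2 and 2 without palbociclib replicates 1, 2 and 3. Of 29 ribosome biogenesis genes 3 were higher and 7 lower, with a median of 0.02: the nucleolar methyltransferase gene FBL (log2 fold change -0.55 ± 0.08 SE, adjusted p = 7.46e-08) and NPM1, which encodes nucleophosmin (log2 fold change -0.36 ± 0.07 SE, adjusted p = 4.34e-05), fell, and NOLC1 rose (log2 fold change 0.53 ± 0.10 SE, adjusted p = 1.28e-05). Of 30 proteasome subunit genes 2 were higher and 11 lower, the latter a larger share than the 13.4% of all genes, with a median of -0.12 (-0.1722 to -0.06713 with a library left out). Named by the rule were, downward, PSMD4 (log2 fold change -0.38 ± 0.07 SE, adjusted p = 1.96e-05) and, upward, PSMD1 (log2 fold change 0.34 ± 0.08 SE, adjusted p = 6.59e-04). Without DMSO replicate 1 the proteasome genes called lower numbered 7, and without palbociclib replicate 2 those higher numbered 1.

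Nuclear genes of the respiratory chain were more often higher than lower. Of 38 tested nuclear genes of complexes II to V 15 were called higher and 1 lower, with a median of 0.16. The lower one, ATP5ME, an ATP synthase subunit gene (log2 fold change -0.20 ± 0.07 SE, adjusted p = 0.0226), was not called without DMSO replicate 1 or palbociclib replicate 2, nor with no filter on low counts. UQCRQ, a complex III subunit gene, stood at 470.0, 443 and 441 CPM with DMSO and 674, 667 and 653 CPM with palbociclib (log2 fold change 0.56 ± 0.07 SE, adjusted p = 1.13e-09), and UQCR11 rose too (log2 fold change 0.55 ± 0.07 SE, adjusted p = 3.72e-09). Of 35 complex I genes 13 were higher and 3 lower, with a median of 0.09; NDUFA2 (log2 fold change 0.54 ± 0.08 SE, adjusted p = 7.35e-07) and NDUFA11 (log2 fold change 0.56 ± 0.10 SE, adjusted p = 1.06e-05) were among them. These rises were small, but the replicates of each group lay close together.

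Of the 13 protein genes encoded by mitochondrial DNA, 7 were called lower and 0 higher, with a median of -0.22 that became -0.06537 without DMSO replicate 3. The groups did not overlap in 2 of the 13, MT-ATP8 and MT-ND6, against 39% of all genes. MT-ATP8 stood at 5993, 5449 and 7242 CPM with DMSO and 4762, 3492 and 3873 CPM with palbociclib (log2 fold change -0.62 ± 0.08 SE, adjusted p = 3.89e-08), and MT-ND6 at 206, 184 and 234 CPM with DMSO and 133, 125 and 155 CPM with palbociclib (log2 fold change -0.59 ± 0.09 SE, adjusted p = 1.06e-06). The number called was 2 without DMSO replicate 3, 3 without palbociclib replicate 2, 4 without DMSO replicate 1 or palbociclib replicate 3, and 2 with DESeq2. DMSO replicate 3 also had the highest mitochondrial share of counts among the 6 libraries, 22.6%.

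Carbon and redox metabolism changed in single genes more than as groups. Of 20 tested glycolysis genes 5 were called higher and 2 lower, beside 14.5% and 13.4% of all genes tested, with a median of 0.13. PKM, pyruvate kinase, stood at 522, 566 and 564 CPM with DMSO and 1136, 912 and 954 CPM with palbociclib (log2 fold change 0.86 ± 0.07 SE, adjusted p = 6.52e-15), and HK1, hexokinase 1, rose too (log2 fold change 0.50 ± 0.10 SE, adjusted p = 6.88e-05). LDHB, a lactate dehydrogenase subunit gene, fell from 8.62, 12.0 and 10.4 CPM to 2.73, 4.60 and 1.44 CPM (log2 fold change -1.84 ± 0.41 SE, adjusted p = 3.72e-04). Of 24 genes linked to the antioxidant factor NRF2 7 were higher and 4 lower, with a median of 0.12. The ferritin light chain gene FTL stood at 136, 147 and 133 CPM with DMSO and 272, 270.4 and 276 CPM with palbociclib (log2 fold change 0.97 ± 0.08 SE, adjusted p = 4.13e-15), and its groups lay apart. SLC7A11 and SLC3A2, described above, are on this list as well and fell.

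Of 13 tested hypoxia-linked genes 5 were higher and 2 lower, beside 14.5% and 13.4% of all genes tested, with a median of 0.34. Without DMSO replicate 3, as with DESeq2, 3 were called higher, and without DMSO replicate 3 only 1 was called lower. CA12, a cell-surface carbonic anhydrase and another known oestrogen-induced gene, stood at 40.6, 48.8 and 48.5 CPM with DMSO and 201, 216 and 207 CPM with palbociclib (log2 fold change 2.18 ± 0.10 SE, adjusted p = 1.36e-25), and VEGFA, the angiogenic growth factor gene, fell (log2 fold change -1.31 ± 0.32 SE, adjusted p = 0.00124). Of 24 cholesterol genes 3 were higher and 8 lower, with a median of -0.10. ACAT2 (log2 fold change -0.85 ± 0.12 SE, adjusted p = 4.81e-08) and HMGCS1 (log2 fold change -0.46 ± 0.10 SE, adjusted p = 4.99e-04), early enzymes of the pathway, fell, and SCAP, the escort of the SREBP factors (log2 fold change 0.89 ± 0.11 SE, adjusted p = 4.71e-09), rose.

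Of 179 tested solute carrier genes 37 were higher and 18 lower, beside 14.5% and 13.4% of all genes tested, with a median of 0.07. SLC7A11, SLC7A5 and SLC3A2 belong here too. SLC43A2, an amino acid transporter gene outside the ATF4 list, rose from 42.5, 46.4 and 41.4 CPM to 135, 135 and 124 CPM (log2 fold change 1.59 ± 0.10 SE, adjusted p = 8.30e-19).

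Structural genes of the epithelial cell were lower in part. All 5 called of 8 tested S100 genes, which encode small calcium-binding proteins, fell, with a list median of -0.89. S100A6 stood at 1856, 1742 and 1781 CPM with DMSO and 899.9, 907 and 926 CPM with palbociclib (log2 fold change -0.98 ± 0.06 SE, adjusted p = 9.49e-19), and S100A14 stood at 3628, 3434 and 3459 CPM with DMSO and 1797, 1768 and 1918 CPM with palbociclib (log2 fold change -0.94 ± 0.06 SE, adjusted p = 3.29e-18). S100A16 (log2 fold change -0.84 ± 0.07 SE, adjusted p = 8.14e-14) and S100A10 (log2 fold change -0.95 ± 0.14 SE, adjusted p = 1.21e-07) fell as well. Each group was tight and the groups did not overlap. Of 7 tested keratin genes 3 were lower and 1 higher, beside 13.4% and 14.5% of all genes, with a median of -0.44. KRT18 stood at 825, 837 and 819 CPM with DMSO and 532, 534 and 534 CPM with palbociclib (log2 fold change -0.63 ± 0.06 SE, adjusted p = 1.24e-11) and its partner KRT8 at 423, 398 and 456 CPM with DMSO and 312, 306 and 320.3 CPM with palbociclib (log2 fold change -0.44 ± 0.07 SE, adjusted p = 1.32e-06). KRT81, a hair keratin gene, fell (log2 fold change -1.98 ± 0.24 SE, adjusted p = 1.16e-09), and KRT15, a basal keratin gene, rose from near the floor, 0.958, 2.40 and 2.36 CPM, to 7.92, 8.55 and 7.18 CPM (log2 fold change 2.02 ± 0.39 SE, adjusted p = 5.48e-05).

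In the tight junction and adhesion list 6 of 24 were higher and 6 lower, beside 14.5% and 13.4% of all genes. The median was -0.06. The desmosome genes DSP (log2 fold change -0.82 ± 0.08 SE, adjusted p = 4.55e-12) and DSC2 (log2 fold change -1.44 ± 0.25 SE, adjusted p = 7.65e-06) fell, while the tight junction genes TJP3 (log2 fold change 0.79 ± 0.13 SE, adjusted p = 2.16e-06) and, named after its value was seen, CLDN1 (log2 fold change 2.23 ± 0.58 SE, adjusted p = 0.00217) rose beside CLDN2. Another claudin gene, CLDN4, also named after its value was seen, fell (log2 fold change -0.48 ± 0.10 SE, adjusted p = 3.13e-04), so the claudins did not share a direction. Of 14 tubulin genes, the building blocks of microtubules, 4 were higher and 5 lower, beside 14.5% and 13.4% of all genes. The median was -0.17. The major forms TUBB (log2 fold change -0.64 ± 0.07 SE, adjusted p = 1.73e-11), TUBA1B (log2 fold change -0.61 ± 0.06 SE, adjusted p = 2.39e-11) and TUBA1C (log2 fold change -0.61 ± 0.07 SE, adjusted p = 7.13e-11) fell, and TUBA4A rose (log2 fold change 0.90 ± 0.10 SE, adjusted p = 2.27e-10). Tubulin genes share long stretches, so their counts may be split between copies.

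Interferon-stimulated genes and secreted factors linked to senescence were mostly too low to test. Of 42 interferon-stimulated genes 16 were tested, 5 were called higher and 0 lower, and the median was -0.01. LGALS3BP stood at 15.0, 13.5 and 16.2 CPM with DMSO and 46.9, 46.7 and 44.2 CPM with palbociclib (log2 fold change 1.63 ± 0.16 SE, adjusted p = 3.19e-12), and IFI6 stood at 10.9, 12.6 and 17.5 CPM with DMSO and 32.2, 29.3 and 35.9 CPM with palbociclib (log2 fold change 1.26 ± 0.19 SE, adjusted p = 4.42e-07). OAS2, with no more than 3 counts per DMSO library, had a mean at least 4.50-fold higher against that floor. It could pass the filter only through a group where it was high, so the counts of 5 and 0 do not describe all 42. Of 20 senescence-linked secreted factors 3 were tested and all 3 were higher: TIMP1 (log2 fold change 2.07 ± 0.19 SE, adjusted p = 1.66e-13), TIMP2 (log2 fold change 1.60 ± 0.11 SE, adjusted p = 9.56e-18) and IGFBP5. The other 17, IL6 and CXCL8 among them, were not tested because they did not pass the count filter. Both tested metallothionein genes, MT2A (log2 fold change -0.73 ± 0.09 SE, adjusted p = 2.24e-09) and MT1F (log2 fold change -0.75 ± 0.21 SE, adjusted p = 0.00403), were lower; MT1F was not called without DMSO replicate 2.

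Palbociclib was then set against abemaciclib, another CDK4/6 inhibitor, at the same dose and time in ZR-75-1. The same palbociclib libraries enter this comparison and the comparison with DMSO. Of 11017 genes 1451 were called different, which is 13.2%, with 875 higher and 576 lower with palbociclib (edgeR, adjusted p under 0.05). By the rule, the genes named have the smallest p among those also called against DMSO, so their differences are a selection. The proliferation genes MKI67, TOP2A and CENPF were higher with palbociclib than with abemaciclib, by 4.53, 2.85 and 2.12 on the log2 scale (adjusted p = 4.77e-33, 2.11e-35 and 3.52e-30). MKI67 was at 179, 203 and 187 CPM with palbociclib, against a mean of 8.40 ± 4.08 CPM with abemaciclib (SD, n = 3) and 477, 498 and 481 CPM with DMSO.

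SCGB2A2 was higher with palbociclib than with abemaciclib by 1.68 (adjusted p = 2.52e-27). ATN1 (-1.36, adjusted p = 2.29e-18), JUN (-1.52, 1.26e-12), PTGES, a prostaglandin E synthase gene (-0.97, 1.49e-17), and ALDH3B2 (-1.79, 7.03e-17) were lower with palbociclib than with abemaciclib. Against DMSO, PTGES was higher with palbociclib, with log2 fold changes of 1.33 to 1.43 over the alternative settings. ALDH3B2 was lower, with -1.60 to -1.45. JUN was at 44.8, 51.3 and 54.3 CPM with palbociclib and 145 ± 37.9 CPM with abemaciclib (SD, n = 3). ATN1 changed little against DMSO, and that call was lost without DMSO replicate 3, palbociclib replicate 2 or palbociclib replicate 3, and with DESeq2.

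The groups described above differed between the drugs to unequal degrees, beside 13.2% of all genes called either way. Of the 34 ATF4-linked genes 8 were higher and 2 lower with palbociclib than abemaciclib, and the median against DMSO was -1.14 with abemaciclib, beside -0.85 with palbociclib. No tRNA synthetase gene was called different between the drugs at an adjusted p under 0.05. Of 25 ER chaperone genes 2 were higher and 2 lower, and of 37 lysosome and autophagy genes 1 was higher and 8 lower. Of 26 immediate early genes 4 were higher and 12 lower with palbociclib, of 29 splicing factors 11 were higher and 0 lower, and of 27 p53 targets 12 were higher and 0 lower. CDKN1A, for example, was higher with palbociclib than abemaciclib by 1.44 (adjusted p = 4.17e-13), both being below DMSO. Of 19 secretory genes 9 were higher and 2 lower, MGP by 1.23 (adjusted p = 1.93e-22).

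The response to palbociclib was last compared between lines, by subtracting the CAMA-1 log2 fold change from that of ZR-75-1, tested as an interaction in a fit over all 18 libraries. Of 11987 genes 2438 were called different, which is 20.3%; 1201 were more positive and 1237 more negative in ZR-75-1. The genes with the smallest p among those also called in ZR-75-1 were, in the positive direction, MGP, IRX3, STC1 and SSTR2. MGP had a log2 fold change of 3.46 in ZR-75-1 and -0.23 in CAMA-1 (difference 3.70 ± 0.09 SE, adjusted p = 2.46e-42). IRX3, a homeobox gene, had 1.02 in ZR-75-1 and -0.63 in CAMA-1, and STC1, a secreted glycoprotein gene, 0.45 and -3.16 (differences 1.65 and 3.61, adjusted p = 4.03e-22 and 1.49e-18). SSTR2, a somatostatin receptor gene, rose in both, by more in ZR-75-1 (difference 1.59, adjusted p = 9.52e-17).

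In the negative direction GDF15 had -1.61 in ZR-75-1 and 4.65 in CAMA-1, KRT81 -1.98 and 4.21, BCAS1 -0.31 and 2.43, and SOX4 -0.22 and 1.64. Their differences were -6.26, -6.19, -2.73 and -1.85 (adjusted p = 1.90e-35, 1.60e-23, 6.25e-26 and 1.20e-24). The ZR-75-1 calls of SOX4, BCAS1 and STC1 were each lost in 1 or more fits with a library left out, whereas their CAMA-1 changes were several-fold.

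Immediate early genes and keratins stood far apart between the lines. Counts here are to be read beside the 20.3% of all genes called different either way. Of 7 keratin genes 6 were more negative in ZR-75-1 and 0 more positive, with medians of -0.44 in ZR-75-1 and 1.62 in CAMA-1. Of the immediate early genes 18 of 26 were more negative in ZR-75-1 and 0 more positive, with a median of -0.56 in ZR-75-1 and 1.16 in CAMA-1. JUN had -1.05 and 1.33 (difference -2.38, adjusted p = 6.83e-15). Of the 34 ATF4-linked genes 15 were more negative and 5 more positive in ZR-75-1, with medians of -0.85 and -0.25. ATF4 fell in both lines, further in ZR-75-1 (difference -0.89, adjusted p = 4.47e-07), while the log2 fold changes in ZR-75-1 and CAMA-1 were -1.53 and 2.16 for ATF3 and -2.72 and 0.42 for NUPR1. Of 27 p53 targets 10 were more negative and 2 more positive, CDKN1A with -1.04 and 1.66 (difference -2.70, adjusted p = 2.39e-16). Of 13 mitochondrially encoded genes 12 were more negative and 0 more positive, with medians of -0.22 and 0.90. Of 78 ribosomal protein genes 46 were more positive and 2 more negative, with medians of -0.02 and -0.32. Of 25 ER chaperone genes 10 were more positive and 3 more negative; HSPA5 rose in ZR-75-1 and in CAMA-1 had a log2 fold change of 0.17 (difference 0.59, adjusted p = 2.69e-05). The interaction was not called for A2M, CLDN2 or CAMP, so a difference between lines was not shown for them.

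**Figure D5:**
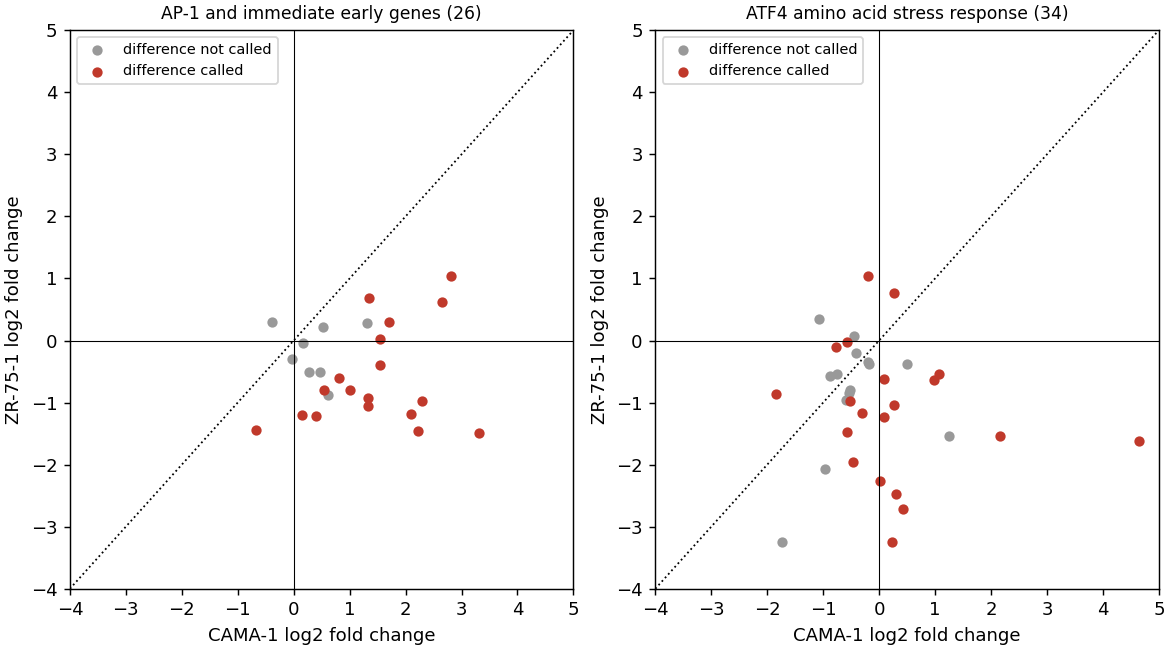
Log2 fold change with palbociclib in ZR-75-1 (vertical axis) against that in CAMA-1 (horizontal axis) for 26 immediate early genes (left) and 34 ATF4-linked genes (right); the dotted line marks equal responses and red marks genes whose difference between lines was called. Most points of both panels lie below the dotted line, and in the left panel most lie to the right of 0.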

How the data were processed

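RNA was sequenced with a 3′ tag kit as single-end reads, so a read marks the end of a transcript and counts need no correction for gene length. The deposited values are raw read counts per gene: by their methods, the authors trimmed reads with BBDuk, aligned them to hg38 with STAR and counted them with featureCounts on GENCODE release 35. The strand setting, the treatment of multimapping reads and any use of molecular identifiers are not given in the sources used here, so overlapping and near-identical genes are uncertain. All libraries were at 0 in 35543 of the table's 60656 rows. Rows without a symbol held 1.04% of the counts.

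Groups came from the labels. Counts of the 9 ZR-75-1 libraries were filtered with filterByExpr, scaled by TMM and tested with edgeR 4.0.16 (quasi-likelihood, R 4.3.3) for palbociclib against DMSO and against abemaciclib. The difference between lines was an interaction over 18 libraries in 6 groups. A gene was called at a Benjamini-Hochberg adjusted p under 0.05 over all genes tested. SE is the log2 fold change divided by the square root of F. Genes with at most 3 counts in each library of a group are given as bounds against 3 counts. Each bound uses the mean CPM of the other group, so a single library can lie closer to the floor. The scripts were tested on simulated data. Counting error only is covered by the 3-count floor.

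The gene lists and the rules below were chosen with earlier results of these data known. Named were, for each direction, the 8 called genes that changed most, provided that they had a symbol, did not overlap between groups and averaged 10 or more counts over the 6 libraries. In each list, up to 4 called members of smallest p were named, with at least 1 in each direction where both were called, as were CDK4, CDK6, CCND1 and RB1. In the other contrasts the 4 genes of smallest p in each direction among genes also called against DMSO were named, and all ATF4-linked genes with at least 10 counts on average. Outside this rule, CARS1, IARS1, NARS1, HSP90B1, PDIA6, XBP1, CANX, GAA, CTSA, LAMP1, ATP6V0D1 and ATP6V1G1 were named for their promoter match, and SCGB1D2, PIP, SERPINA5, CLDN1, CLDN4, HERPUD1, TFE3 and MITF after their values were seen. Some genes that meet the rule are not reported here. Coordinates are from GENCODE release 44 on GRCh38, and promoter sequences from RefSeq on GRCh38.p14. Alternatives tried were RLE and upper-quartile scaling, no filter and a stricter filter on low counts, DESeq2 1.42.0, a replicate block, the 6 libraries alone, and mitochondrial genes left out. Each library of the groups in a contrast was also left out in turn.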

Additional observations from a re-analysis of the deposited data

Results flagged for a closer look

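The response to palbociclib differed between ZR-75-1 and CAMA-1 by the interaction test in 2438 genes of 11987. The named genes below were picked because that test called them, or because a list described above turns on them; the values are differences in log2 fold change, ZR-75-1 minus CAMA-1, with edgeR adjusted p.

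More positive in ZR-75-1 were MGP (3.70, adjusted p = 2.46e-42), STC1 (3.61, 1.49e-18), IRX3 (1.65, 4.03e-22), SSTR2 (1.59, 9.52e-17) and HSPA5 (0.59, 2.69e-05). More negative were GDF15 (-6.26, 1.90e-35), KRT81 (-6.19, 1.60e-23), ATF3 (-3.69, 3.77e-10), NUPR1 (-3.14, 2.05e-19), BCAS1 (-2.73, 6.25e-26), CDKN1A (-2.70, 2.39e-16), JUN (-2.38, 6.83e-15), SOX4 (-1.85, 1.20e-24) and ATF4 (-0.89, 4.47e-07).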

How the results depend on the processing

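The number of genes called for palbociclib against DMSO was 3068, and 2203 with DESeq2, 3060 with a replicate block and 2517 to 2816 with a library left out. Against abemaciclib DESeq2 called 898 genes (552 higher, 346 lower), the block 1473, and leave-one-out fits 1056 to 1298. For the difference between lines the range was 2073 to 2424 over other settings, 2330 with the block and 2098 to 2295 leaving out a library. Same-numbered DMSO and palbociclib replicates did not deviate together over all genes tested (r = -0.018, -0.030 and -0.0028). A deviation shared by a subset of genes was not tested. No named gene changed direction past a test under any setting.

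Settings that admit more genes moved some list medians, by adding members. With no filter and with DESeq2 they were, in that order, -0.7881 and -0.7992 for immediate early genes, -0.1501 and -0.1596 for tight junctions, -0.185 and -0.1924 for keratins, 2.018 and 1.841 for secretory genes, -0.07133 and -0.08387 for S100 genes, -5e-04 and -0.01006 for tubulins, -0.6909 and -0.7103 for histones, and -0.1033 and -0.118 for interferon-stimulated genes. For the last, a stricter filter gave -0.1263 and the 6 libraries alone -0.1148. DESeq2 gave 0.3459 for lysosome genes and 0.02362 for solute carriers.

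With a library left out, medians ran over -0.265 to -0.1564 for synthetases, 0.3055 to 0.4496 for ER chaperones, -0.1612 to -0.06947 for cholesterol, 0.0874 to 0.1684 for glycolysis, 0.208 to 0.4129 for hypoxia, -0.101 to 0.1154 for interferon-stimulated genes, -0.4877 to -0.2524 for p53 targets, -0.6963 to -0.4456 for immediate early genes, -0.1732 to 0.03812 for ribosome biogenesis, -0.3716 to -0.3196 for splicing, 0.101 to 0.1869 for the respiratory chain, 2.24 to 2.366 for secretory genes, 0.0635 to 0.1215 for solute carriers, -0.2223 to 0.03084 for tubulins, -0.1089 to 0.0616 for the Wnt pathway, -0.1532 to 0.09402 for quiescence, -0.009538 to 0.07977 for receptor tyrosine kinases, -0.04074 to 0.01067 for cytosolic ribosomal proteins, -0.3097 to -0.06537 for mitochondrially encoded genes, -0.1722 to -0.06713 for the proteasome, 0.06993 to 0.1319 for complex I and -0.08917 to -0.01784 for tight junctions. The median changed sign for interferon-stimulated genes, ribosome biogenesis, tubulins, the Wnt pathway, quiescence, receptor tyrosine kinases and cytosolic ribosomal proteins. The cause was not tested.

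With 3 libraries a group, small changes of low genes were not detectable at this depth.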
